A study of Rattus norvegicus with 13 samples.

Results

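The interleukin-1 (IL-1) family was followed here through 10 genes: the ligands Il1a, Il1b, Il1rn, Il18 and Il33, the receptor genes Il1r1, Il1r2, Il1rap and Il1rl1, and the processing protease Casp1. They were taken by symbol from the probe sets of the Affymetrix rat expression array that are annotated to exactly 1 gene. All 10 were on the array, among 14217 genes named in this way, with 16 probe sets of the 31042 that are not controls. Second-passage articular chondrocytes, taken from the hips (femoral heads) of Wistar males aged 2 months, were pooled, seeded into flasks and hybridized with 1 array per flask. The groups were glucosamine plus IL-1β (n = 4), which received 20 mM glucosamine 6 hours ahead of 10 ng/ml IL-1β, IL-1β alone for 14 hours (n = 4), 20 mM glucosamine alone for 20 hours (n = 2), and untreated cultures (n = 3). All flasks came from the same pool of cells, so P values measure the spread between flasks and not between animals.

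IL-1α and IL-1β are inflammatory cytokines that signal through the type I receptor (Il1r1) once the accessory protein (Il1rap) has joined it. The receptor antagonist (Il1rn) occupies that receptor without signaling, and the type II receptor (Il1r2) is a decoy that binds IL-1 and passes on no signal. IL-33 is held in the nucleus and, once released, binds ST2 (Il1rl1) together with the same accessory protein, and IL-18 has a receptor of its own. Caspase-1 cuts the inactive precursors of IL-1β and IL-18, whereas IL-1α is active without it. In cartilage, IL-1 is known for inducing matrix-degrading proteases and nitric oxide and for lowering matrix synthesis. The IL-1β added to the flasks was protein, and the array measured the RNA of the cells.

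Values are the deposited signals, in linear units that include negative estimates. Signals at or under 5.71, the 25th percentile of all values, were set to that floor before log2 was taken, and a fold change against a group with arrays at the floor is given as a lower bound. Fold changes compare means of log2 values, and the bounds hold on that scale, not for ratios of arithmetic means. A gene was represented by its probe set with the highest mean, and called at an adjusted P under 0.05 in a limma fit over all 29263 probe sets tested. Of the 10 genes, 9 had a probe set above the floor on at least 1 array, and Il1rn had none. Array means lay between 127 and 145. The d arrays of glucosamine plus IL-1β and of IL-1β alone stood apart at low signals, where their 1st percentiles were -36.8 and -31.0, against -6.47 to -4.81 on the other arrays. Chondrocyte markers were above the floor on every array, with 7 of 8 listed genes on the array.

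**Figure D1:**
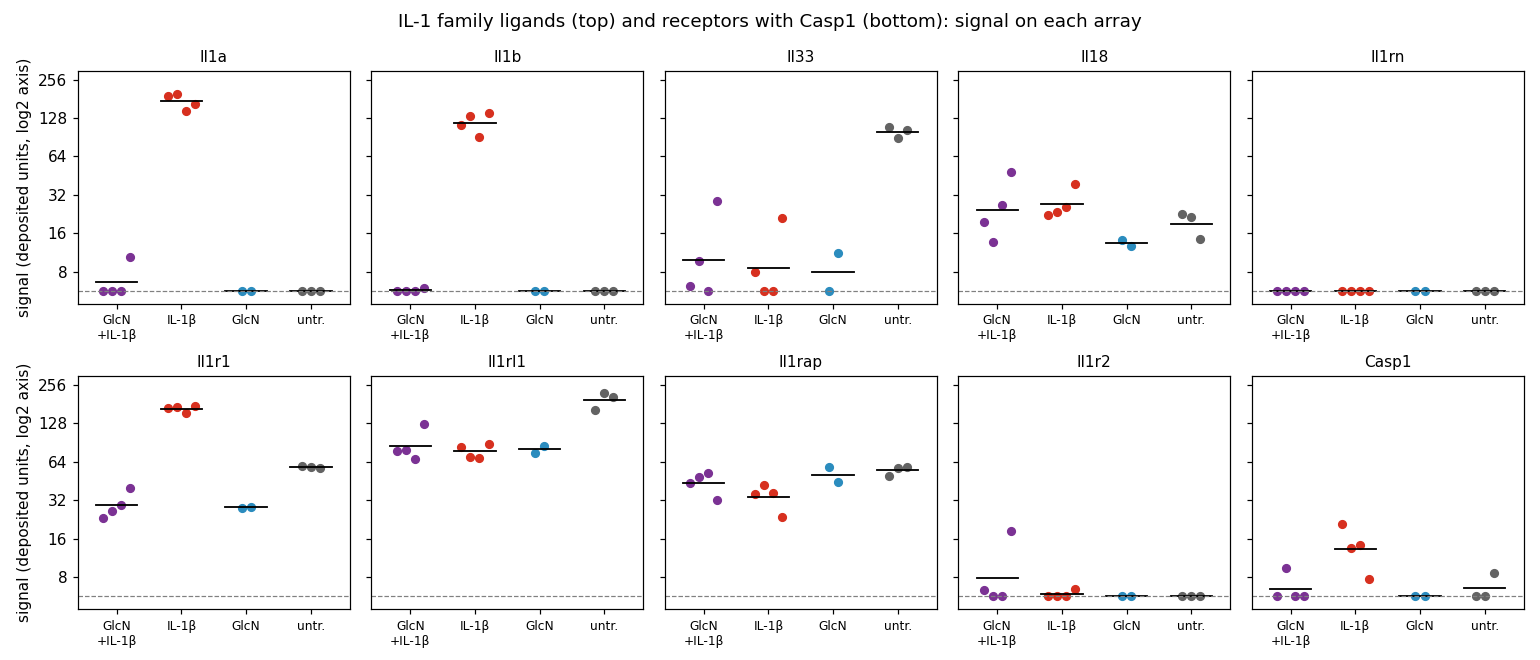
Signal of the representative probe set of each gene on each of the 13 arrays (y axis, deposited linear units on a log2 axis), by group (x axis: GlcN, glucosamine; untr., untreated). Each point is an array, the bar is the mean of the log2 values, and the dashed line is the floor of 5.71, at which lower signals are drawn. Il1a, Il1b and Il1r1 were highest in the 4 IL-1β arrays, and Il33 and Il1rl1 were highest in the 3 untreated arrays.

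IL-1β alone was compared with no treatment to show which of the family's own genes the cytokine moved. Il1a and Il1b were at the floor in untreated chondrocytes and were at least 30.5-fold and at least 20.6-fold higher after IL-1β. The signaling receptor Il1r1 was 2.89-fold higher, while Il33 was at least 11.7-fold lower on the log2 scale and its receptor Il1rl1 2.53-fold lower. By representative probe set, 4 of the 9 genes tested rose and 3 fell, where the background over all probe sets tested was 11.1% higher and 13% lower. The median log2 fold change was 0.50 over the 9 genes and 0.10 over all probe sets. Fewer cells of a type and less RNA per cell cannot be told apart in such cultures.

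Il1a, the gene of IL-1α, had signals of 191, 197, 147 and 166 in the IL-1β arrays, against 0.901, 3.35 and 0.348 in the untreated arrays. All 4 IL-1β arrays were far above the floor and all 3 untreated arrays were under it. Its second probe set read 114, 148, 91.3 and 103 with IL-1β and 3.72, 1.07 and 2.17 without treatment. The log2 fold change was 4.93 (SE 0.26, adjusted P = 7.4e-08, limma) by the representative and 4.30 (SE 0.33, adjusted P = 1.72e-06, limma) by the other probe set. Il1b, the gene of IL-1β itself, read 113, 134, 90.2 and 140 in the IL-1β arrays and 1.67, -2.50 and -0.908 in the untreated arrays. The groups did not overlap, and the log2 fold change was 4.36 (SE 0.21, adjusted P = 3.89e-08, limma).

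Il1a and Il1b are neighbors on rat chromosome 3, with 0 other protein-coding genes between them in RefSeq, whereas Il1rn lies on the same chromosome with 1185 protein-coding genes between it and Il1a. The promoters of Il1a and Il1b are shown because both genes were at the floor without IL-1β and rose with it, and those of Il1r1 and Il33 as the receptor that rose and the ligand that fell. Each runs 5′ to 3′ over 300 bases, 250 before the annotated start and 50 after it, from RefSeq on build GRCr8. They are at chr3:136989968-136990267, minus strand (Il1a), chr3:137036532-137036831, minus strand (Il1b), chr9:50034133-50034432, plus strand (Il1r1) and chr1:237134696-237134995, plus strand (Il33). Capitals mark matches, on either strand, to TATAAA, to the AP-1 motif TGANTCA and to the NF-κB consensus.
Il1a: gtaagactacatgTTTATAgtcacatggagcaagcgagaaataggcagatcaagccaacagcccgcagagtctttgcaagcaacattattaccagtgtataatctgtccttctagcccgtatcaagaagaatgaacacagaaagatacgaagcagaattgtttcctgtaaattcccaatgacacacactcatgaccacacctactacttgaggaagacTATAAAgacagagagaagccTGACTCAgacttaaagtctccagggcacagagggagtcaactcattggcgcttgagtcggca
Il1b: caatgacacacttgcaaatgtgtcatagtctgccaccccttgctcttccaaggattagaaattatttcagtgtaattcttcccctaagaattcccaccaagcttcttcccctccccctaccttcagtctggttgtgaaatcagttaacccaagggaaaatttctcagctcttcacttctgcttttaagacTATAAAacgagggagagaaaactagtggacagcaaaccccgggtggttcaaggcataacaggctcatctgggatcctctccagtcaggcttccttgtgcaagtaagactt
Il1r1: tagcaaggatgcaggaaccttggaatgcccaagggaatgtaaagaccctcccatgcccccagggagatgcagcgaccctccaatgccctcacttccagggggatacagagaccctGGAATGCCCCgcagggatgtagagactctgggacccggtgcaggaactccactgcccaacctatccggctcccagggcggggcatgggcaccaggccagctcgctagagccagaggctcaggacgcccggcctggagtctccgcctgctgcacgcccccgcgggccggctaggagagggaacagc
Il33: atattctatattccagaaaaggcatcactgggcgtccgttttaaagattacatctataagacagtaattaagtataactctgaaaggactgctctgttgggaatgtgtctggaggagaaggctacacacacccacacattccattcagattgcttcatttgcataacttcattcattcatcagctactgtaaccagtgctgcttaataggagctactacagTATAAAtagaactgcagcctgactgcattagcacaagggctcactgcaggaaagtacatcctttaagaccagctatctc

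The 4 windows differed in what they held. Il1a had an AP-1 match that begins 12 bases before the annotated start, TATAAA beginning 32 bases before it, and a further TATAAA on the opposite strand near the far end of the window. Il1b and Il33 had TATAAA beginning 60 and 29 bases before their starts, and neither had a match to the AP-1 motif or the NF-κB consensus in this window. The Il1r1 window, in contrast, had an NF-κB consensus match and no TATAAA. Of all 33469 promoters in the table, 7.51% held the NF-κB consensus, 7.33% the AP-1 motif and 14.2% TATAAA, against 2, 2 and 5 of the 9 member promoters. A C/EBP motif, TTNNGNAA, was in 5 of the 9 and in 41.3% of all, and is left in lower case. Il1r2 had no entry in the promoter table. These matches describe letters only, and Il18 held the other AP-1 match and Il1rap the other NF-κB match.

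Il1r1, the signaling receptor, was present in all groups and moved with a narrow spread. Its representative probe set read 170, 172, 153 and 174 in the IL-1β arrays, against 58.8, 57.9 and 56.9 in the untreated arrays. The lowest IL-1β array was thus well above the highest untreated array, and the log2 fold change was 1.53 (SE 0.16, adjusted P = 1.95e-05, limma). A second probe set read 7.22 to 7.94 with IL-1β and 2.14 to 4.69 without treatment, so it was above the floor in the IL-1β arrays and in no other group (at least 1.32-fold, adjusted P = 0.00528, limma). The third lay near the floor and did not pass (adjusted P = 0.56, limma).

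Il33 went the other way from Il1a and Il1b. It read 7.95, 3.18, 3.53 and 21.0 in the IL-1β arrays, against 109, 89.7 and 103 in the untreated arrays. The groups did not overlap, and 2 of the 4 IL-1β arrays were at the floor, the highest being array d. The log2 fold change was -3.54 (SE 0.60, adjusted P = 0.000916, limma). Arithmetic means were 8.91 ± 8.33 with IL-1β and 101 ± 9.95 without treatment (SD, n = 4 and 3). The second Il33 probe set read 3.31, 2.70, 5.68 and 0.847 with IL-1β and 158, 136 and 147 without treatment, at least 25.6-fold lower (adjusted P = 5.04e-09, limma). Il33 was thus well above the floor in untreated chondrocytes by both probe sets, and at or near it in 3 of 4 IL-1β arrays by the representative.

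Il1rl1, which encodes the IL-33 receptor ST2, fell with its ligand. Its signals were 84.1, 69.2, 68.9 and 87.8 in the IL-1β arrays and 162, 220 and 207 in the untreated arrays. Unlike Il33, it stayed well above the floor, with no overlap between groups and a log2 fold change of -1.34 (SE 0.20, adjusted P = 0.000323, limma). The second Il1rl1 probe set was dim, between 2.84 and 46.2 with IL-1β and between 4.92 and 12.6 without treatment, and ran in the opposite direction without passing (log2 fold change 0.31, adjusted P = 0.781, limma). Its highest value was on array d of IL-1β. The representative did not pass the stricter threshold of the methods' analysis of variance. Il1rl1 and Il1r1 lie on chromosome 9 with 1 protein-coding gene, Il1rl2, between them, and the neighbors were called in opposite directions. Of cell types known to carry IL-33 or ST2, the 5 fibroblast markers summed to 9336 to 11026 with IL-1β and 9498 to 10679 without treatment. Within that sum the markers moved in opposite directions. Col3a1 averaged 1320 with IL-1β and 2710 without treatment, whereas Pdgfra averaged 1916 and 1102, and Dcn 2493 and 1700. Thy1 (850 and 999) and Col1a1 (3792 and 3588) differed within their spread. The endothelial markers, 4 of 5 on the array, summed to 91.8 to 197 and 46.7 to 64.2, and the 4 mast cell markers to 12.9 to 96.8 and 23.4 to 29.1, with Fcer1a under the floor. With IL-1β, the mast cell markers Mcpt1 and Cpa3 had highest values of 49.6 and 30.1, against means of 18.2 and 9.10. The part of these cells in the falls of Il33 and Il1rl1 was not tested.

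Il1rap and Casp1 passed only narrowly. Il1rap, the accessory protein shared by both receptors, read 35.7, 42.0, 36.3 and 23.5 with IL-1β and 49.7, 56.9 and 58.4 without treatment (log2 fold change -0.71, SE 0.23, adjusted P = 0.0427, limma). The 2 groups did not overlap, but array d of IL-1β was the lowest, and without that array alone the log2 value was -0.53 with an adjusted P of 0.076 (limma). The other Il1rap probe set was at 9.01 to 50.1 with IL-1β and 10.4 to 13.2 without treatment, and did not pass. Casp1 read 20.9, 13.5, 14.1 and 7.75 with IL-1β and 4.70, 4.79 and 8.67 without treatment. These groups overlapped and lay close to the floor, with at least 2.02-fold higher signal (adjusted P = 0.0364, limma) that did not pass in 10 of 19 other settings.

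Il18, Il1r2 and Il1rn gave no call. Il18 read 22.2 to 39.2 with IL-1β and 14.4 to 22.6 without treatment, with a log2 difference of 0.50 and a 95% confidence interval of -0.37 to 1.37. The decoy receptor Il1r2 was above the floor on array d alone among the IL-1β arrays, at 6.41, and under it on all 3 untreated arrays. The antagonist Il1rn lay between -6.52 and 3.76 over all 13 arrays and was under the floor on each. For both inhibitors a low level is not told apart from none.

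Among listed markers of myeloid cells, which are known sources of IL-1, mainly Cd14 and Cd68 were higher with IL-1β than without treatment. Of 8 listed macrophage and monocyte markers 7 were on the array, and their summed signal was 541 to 611 in the IL-1β arrays, against 241 to 263 in the untreated arrays. Most of that sum came from Cd14, at 357 ± 27.0 and 235 ± 10.6 (SD, n = 4 and 3), and from Cd68, at 188 ± 39.3 and -15.2 ± 2.50. The defining markers were near the floor, with Ptprc at 8.18 ± 1.24 and 5.09 ± 1.35, Itgam at 1.41 ± 2.38 and 0.934 ± 1.71, and Csf1r at 10.8 ± 13.4 and 5.30 ± 0.68. Of the 7, 1 was at or under the floor on all IL-1β arrays and 5 on all untreated arrays. Neutrophil markers, 3 of 4 on the array, were near the floor. S100a8 averaged 8.91 with IL-1β and 9.03 without treatment, S100a9 4.24 and 2.79, and Csf3r 7.82 and 4.28. The part of these cells in the result was not tested. In glucosamine plus IL-1β the macrophage and monocyte sum was 348 to 392. In glucosamine alone it was 277 to 341, with Cd68 at a mean of 34.7. The chondrocyte sum was 5136 to 6226 in the IL-1β arrays and 9410 to 10663 in the untreated arrays.

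**Figure D2:**
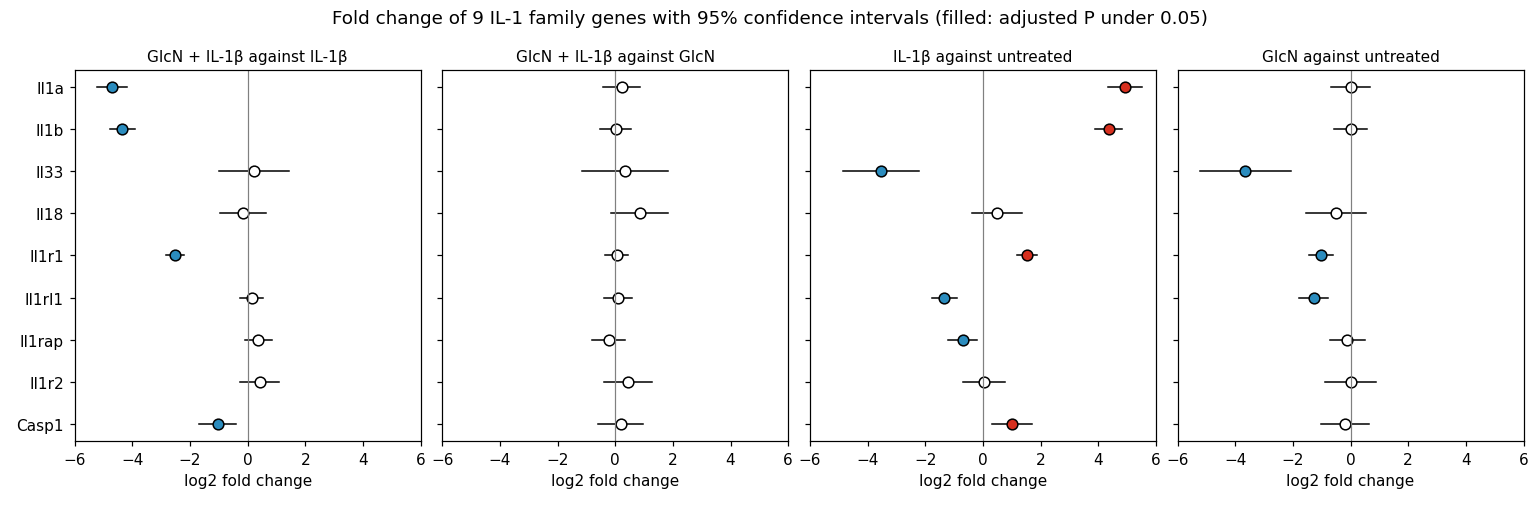
Log2 fold change (x axis) of the representative probe sets of the 9 genes tested (y axis) in 4 comparisons, with GlcN for glucosamine. Points are limma estimates, bars are 95% confidence intervals, and filled points had an adjusted P under 0.05 (red higher, blue lower). The estimates of Il1a, Il1b, Il33, Il1r2 and Casp1 are bounded by the floor. No point is filled in glucosamine plus IL-1β against glucosamine.

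Glucosamine plus IL-1β was compared with IL-1β alone to show which responses were smaller when the amino sugar was already in the medium. Il1a, Il1b and Il1r1 were all far lower, at least 26.2-fold, at least 20.4-fold and 5.73-fold. In all, 4 of the 9 genes fell and 0 rose, against a background of 11.4% lower and 11.9% higher. The median log2 fold change was -0.16 over the 9 genes and 0.03 over all probe sets. This comparison shares the IL-1β arrays with the preceding one, so that a gene high in those arrays enters both.

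Il1a read 2.09, 2.86, 2.53 and 10.4 with both agents, against 191, 197, 147 and 166 with IL-1β alone. Of the glucosamine plus IL-1β arrays, only d was above the floor. The log2 fold change was -4.71 (SE 0.24, adjusted P = 9.67e-08, limma), and the second probe set, at 1.54, 2.23, 2.81 and 13.9 with both agents, was at least 15.7-fold lower (adjusted P = 2.35e-06, limma). Il1b read 0.334, 2.76, 1.45 and 5.96 with both agents and 113, 134, 90.2 and 140 with IL-1β alone, a log2 fold change of -4.35 (SE 0.20, adjusted P = 4.1e-08, limma). Relative to the rise in mean signal over untreated cultures, 98.3% of that of Il1a and 97.3% of that of Il1b was missing when glucosamine was present.

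Il1r1 read 23.2, 26.5, 29.5 and 39.6 with both agents, against 170, 172, 153 and 174 with IL-1β alone (log2 fold change -2.52, SE 0.15, adjusted P = 2.41e-07, limma). The highest array with both agents was lower than the lowest untreated array, 56.9. Of the other Il1r1 probe sets, both dim, 1 was at least 1.32-fold lower (adjusted P = 0.00342, limma) and 1 did not pass (adjusted P = 0.945, limma). Casp1 read 0.178, 9.48, 5.36 and 5.67 with both agents and 20.9, 13.5, 14.1 and 7.75 with IL-1β alone, with overlap between the groups (at least 2.04-fold lower, adjusted P = 0.0238, limma). That call did not pass in 10 of 20 other settings. Il33 and Il1rl1 did not pass: the log2 differences were 0.22 (95% confidence interval -0.999 to 1.44) and 0.15 (-0.25 to 0.55). Il33 signals were 6.23, 9.76, 3.93 and 28.7 with both agents, and Il1rl1 signals 78.4, 79.4, 67.4 and 126, both highest on array d. Il18 (13.6 to 48.3), Il1rap (32.1 to 52.1) and Il1r2 (-1.39 to 18.3) overlapped with their IL-1β arrays and did not pass.

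Glucosamine alone was compared with no treatment to show what the sugar did without the cytokine. Il33 was at least 12.6-fold lower, Il1rl1 2.44-fold lower and Il1r1 2.06-fold lower, so 3 of the 9 genes fell and 0 rose. The background was 7.56% lower and 7.14% higher, and the median log2 fold change was -0.20 over the 9 genes and 0 over all probe sets. Il33 read 4.53 and 11.2 in the 2 glucosamine arrays, against 109, 89.7 and 103 in the untreated arrays (log2 fold change -3.65, SE 0.72, adjusted P = 0.00448, limma). Without glucosamine array a the representative gave an adjusted P of 0.0632 (limma). The other Il33 probe set read 6.05 and 6.95 with glucosamine and 158, 136 and 147 without treatment, 22.6-fold lower (adjusted P = 1.89e-07, limma).

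Il1rl1 read 75.1 and 84.9 with glucosamine and 162, 220 and 207 without treatment (log2 fold change -1.28, SE 0.24, adjusted P = 0.0029, limma). Its dim second probe set, at 4.65 and 5.56 with glucosamine and 8.84, 4.92 and 12.6 without treatment, did not pass (log2 fold change -0.59, adjusted P = 0.919, limma), nor did the representative by the methods' analysis of variance. Il1r1 read 27.7 and 28.5 with glucosamine and 58.8, 57.9 and 56.9 without treatment (log2 fold change -1.04, SE 0.19, adjusted P = 0.00279, limma). The other Il1r1 probe sets lay at or near the floor in these groups and did not pass. By representative probe set, every glucosamine array lay under every untreated array for all 3 genes. The same held for Il18 and Casp1, which were not called, so such separation does not set the 3 genes apart. Il33 and Il1rl1 were thus lower after glucosamine alone and after IL-1β alone, while Il1r1 was lower after glucosamine and higher after IL-1β. Both comparisons use the same 3 untreated arrays. Il1a and Il1b were under the floor in both glucosamine arrays, at 2.96 and 3.35 for Il1a and 2.31 and 2.43 for Il1b. Il1rap read 57.8 and 44.7, Il18 14.1 and 12.7, and Casp1 0.472 and 2.75, and none of these passed.

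Glucosamine plus IL-1β was set against glucosamine alone to show what the cytokine did in cultures that already held the sugar. Of the 9 genes, 0 were called by limma, and 0 reached an unadjusted P under 0.05. The methods' analysis of variance with a Tukey test also called 0. The background was small as well, 0.933% higher and 0.861% lower. The median log2 fold change was 0.18 over the 9 genes and 0.06 over all probe sets. For Il1r1, at 23.2 to 39.6 with both agents and 27.7 to 28.5 with glucosamine alone, the log2 difference was 0.05 with a 95% confidence interval of -0.34 to 0.44. For Il1rl1 the difference was 0.09 (-0.40 to 0.58). Intervals were wider for Il18, at 0.85 (-0.14 to 1.84), and for Il33, at 0.32 (-1.17 to 1.81). Those of Il1rap (-0.79 to 0.34), Il1r2 (-0.38 to 1.29) and Casp1 (-0.60 to 0.97) were open as well. A change within these intervals is not excluded for any of the genes, and the floor bounds those of Il33, Il1r2 and Casp1. For Il1a and Il1b, with all glucosamine arrays and most arrays with both agents at the floor, the intervals of -0.44 to 0.87 and -0.52 to 0.55 hold only above it.

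With both agents against no treatment, 3 of the 9 genes fell and 0 rose, against a background of 12.4% lower and 11.5% higher. The genes were Il33, at least 10.0-fold lower on the log2 scale (1 of 4 arrays with both agents at the floor, arithmetic means 12.2 ± 11.3 and 101 ± 9.95, adjusted P = 0.0015, limma), Il1rl1, 2.28-fold lower (adjusted P = 0.000808, limma), and Il1r1, 1.99-fold lower (adjusted P = 0.000634, limma). The second Il33 probe set was under the floor on all arrays with both agents and at least 25.6-fold lower (adjusted P = 9.88e-09, limma). Il1rl1 did not pass by its second probe set (adjusted P = 0.931, limma) or by the methods' analysis of variance. Nor did Il1r1 pass by its other, dim probe sets. The median log2 fold change was -0.02 over the 9 genes and 0.13 over all probe sets. Cultures with both agents had a mean Il1r1 signal of 29.7 ± 7.08, IL-1β cultures 167 ± 9.37, glucosamine cultures 28.1 ± 0.56 and untreated cultures 57.9 ± 0.96 (SD, n = 4, 4, 2 and 3). In this order of levels the cultures with both agents and those with glucosamine alone did not differ beyond their spread.

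The difference of the 2 IL-1β responses, with glucosamine minus without, was tested as an interaction. It passed for 5 of the 9 genes, 3 lower and 2 higher, against a background of 4.57% lower and 3.98% higher, with median log2 values of 0.35 over the 9 genes and 0.06 over all probe sets. The response was smaller with glucosamine for Il1a (-4.71, adjusted P = 1.89e-05, limma), Il1b (-4.35, adjusted P = 7.78e-06, limma) and Il1r1 (-1.48, adjusted P = 0.0021, limma). The other, dim Il1r1 probe sets did not pass, at -0.40 (adjusted P = 0.103, limma) and -0.01. For Il33 the interaction was 3.87 (adjusted P = 0.0203, limma) and for Il1rl1 1.43 (adjusted P = 0.0103, limma), each gene having fallen after IL-1β alone and not having been called when IL-1β was added to glucosamine. The Il33 value is bounded by the floor, since a signal near it in glucosamine arrays could fall no further, whereas the representative of Il1rl1 was above the floor on all arrays. By the dim second Il1rl1 probe set the interaction was 0.15 and did not pass. Without glucosamine array a, neither Il33 nor Il1rl1 passed (adjusted P = 0.129 and 0.0674, limma). For Casp1 the interaction was -0.83 with an adjusted P of 0.472 (limma), so its response was not shown to differ.

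**Figure D3:**
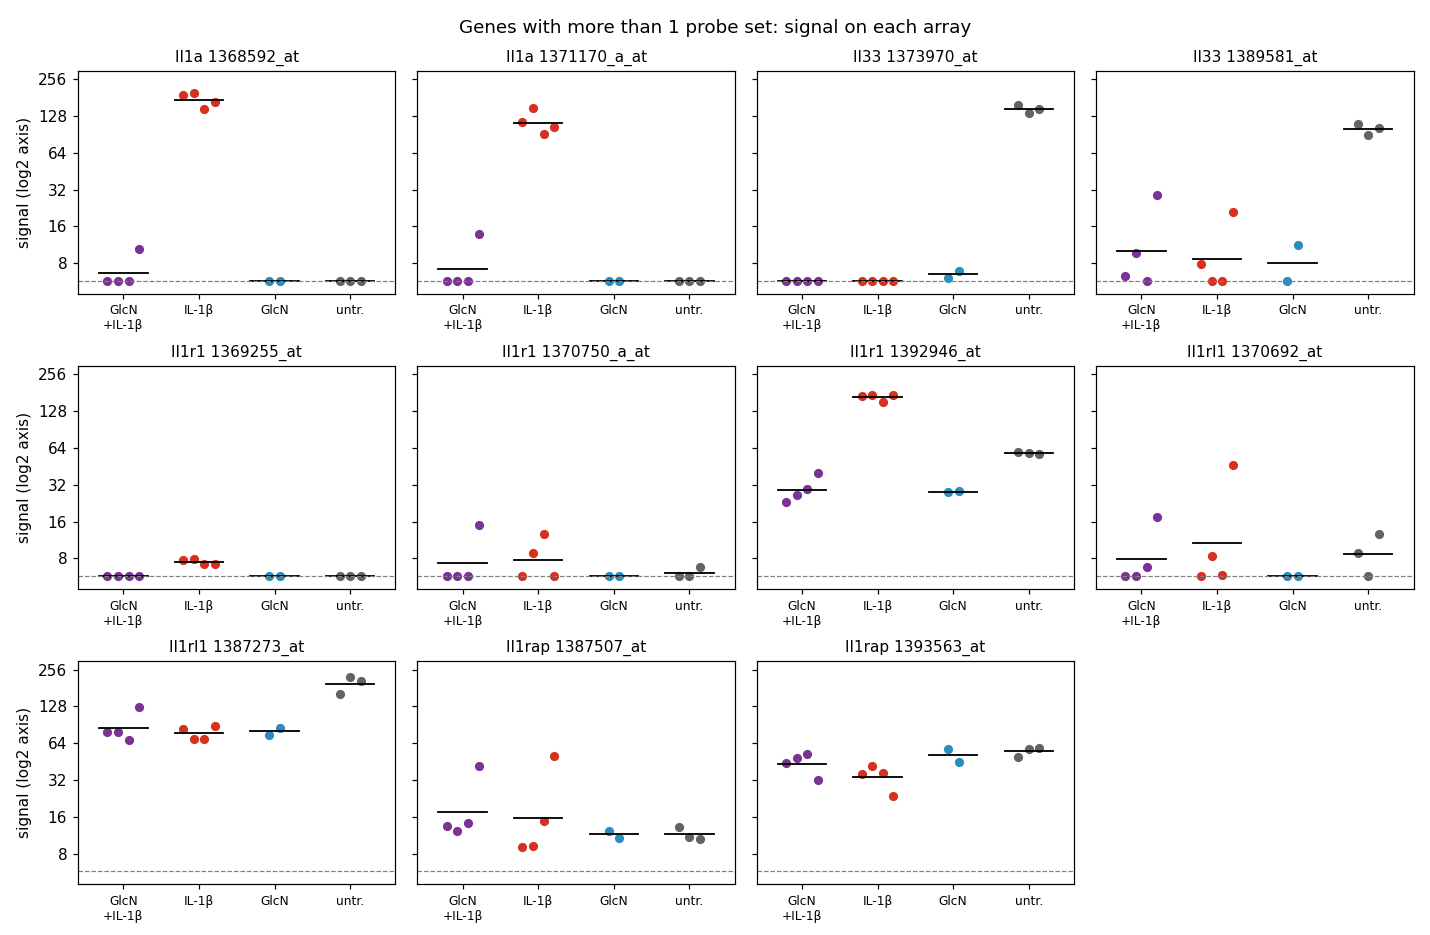
Signal on each array (y axis, deposited linear units on a log2 axis) for every probe set of the 5 genes with more than 1, by group (x axis; GlcN, glucosamine; untr., untreated). Points are arrays, bars are means of log2 values, and the dashed line is the floor of 5.71. Both probe sets of Il1a are highest in the IL-1β arrays and both of Il33 in the untreated arrays, while the dimmer probe sets of Il1r1, Il1rl1 and Il1rap stay near the floor or are high on the d arrays.

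The likeness of patterns was described by Pearson's r of log2 signals over the 13 arrays, among 13747 genes. The arrays fall into 4 treatment groups, so a high r says mostly that group means run alike. Il33 and Il1rl1 were among each other's 3 most alike genes (r = 0.964), and elastin (Eln) was in both lists, with r = 0.965 to Il33 and 0.952 to Il1rl1. The gene most like Il1r1 was Vcan, of the matrix proteoglycan versican (r = 0.990), followed by Fst, of the activin antagonist follistatin (r = 0.989). The patterns nearest to Il1a were Sox7 and the chemokine Ccl3 (r = 0.999 each), and among those nearest to Il1b was the cytokine subunit Il23a (r = 0.998). For genes at the floor outside the IL-1β arrays, r near 1 reflects that on-off form.

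Of 12 other ligands, receptors and binding proteins of the family, 5 were on the array and all 5 were tested. None was called in any of the 6 comparisons, with Il18bp, the soluble IL-18 inhibitor, nearest for IL-1β against no treatment (70.7 ± 33.9 and 31.7 ± 14.5, adjusted P = 0.104, limma). For inflammasome and maturation genes, 7 of 11 were tested. After IL-1β alone 0 rose and 2 fell, after glucosamine alone 2 rose and 2 fell, and with both agents against IL-1β 3 rose and 2 fell. Over all probe sets the shares were 11.1% higher and 13% lower, 7.14% and 7.56%, and 11.9% and 11.4% in these comparisons, and with 7 genes the counts are a description only. Pycard, the adaptor that recruits caspase-1, averaged 14.2 ± 9.07 with both agents, 42.1 ± 5.54 with IL-1β, 11.96 ± 1.40 with glucosamine and 46.2 ± 4.42 without treatment. It fell 3.86-fold after glucosamine (adjusted P = 0.00859, limma) and was 3.32-fold lower with both agents than with IL-1β (adjusted P = 0.00223, limma). Casp4, an inflammatory caspase, and Panx1, a membrane channel, were 2.14-fold and 2.57-fold higher with both agents than with IL-1β (adjusted P = 1.12e-05 and 0.000234, limma).

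Of 14 receptor-proximal signaling genes 13 were tested, and 5 rose and 0 fell after IL-1β alone. With both agents against IL-1β 2 rose and 2 fell, after glucosamine alone 5 rose and 0 fell, and with both agents against glucosamine 1 rose. Over all probe sets 11.1% rose and 13% fell after IL-1β, 11.9% rose and 11.4% fell with both agents against IL-1β, 7.14% rose and 7.56% fell after glucosamine, and 0.933% rose with both agents against glucosamine. Irak2, a kinase-like adaptor of the receptor complex, averaged 88.1 ± 3.58 with both agents, 300.2 ± 37.4 with IL-1β, 70.6 ± 7.43 with glucosamine and 48.4 ± 3.61 without treatment. It was 6.18-fold higher after IL-1β (adjusted P = 6.93e-09, limma) and 3.39-fold lower with both agents than with IL-1β (adjusted P = 1.52e-07, limma). Irak3, a negative regulator of the same complex, was 5.38-fold higher after IL-1β (adjusted P = 1.94e-08, limma). Irak3 was also the gene of this list called with both agents against glucosamine, at 226 ± 31.3 and 127 ± 1.45 (1.77-fold, adjusted P = 0.00411, limma). Irak1, a kinase of the complex, was 1.67-fold higher after glucosamine alone (adjusted P = 0.000115, limma). Myd88, the adaptor that links receptor and kinases, was not called after either agent alone (adjusted P = 0.0538 after IL-1β, limma). It was 1.22-fold higher with both agents than with IL-1β (adjusted P = 0.0111, limma).

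**Figure D4:**
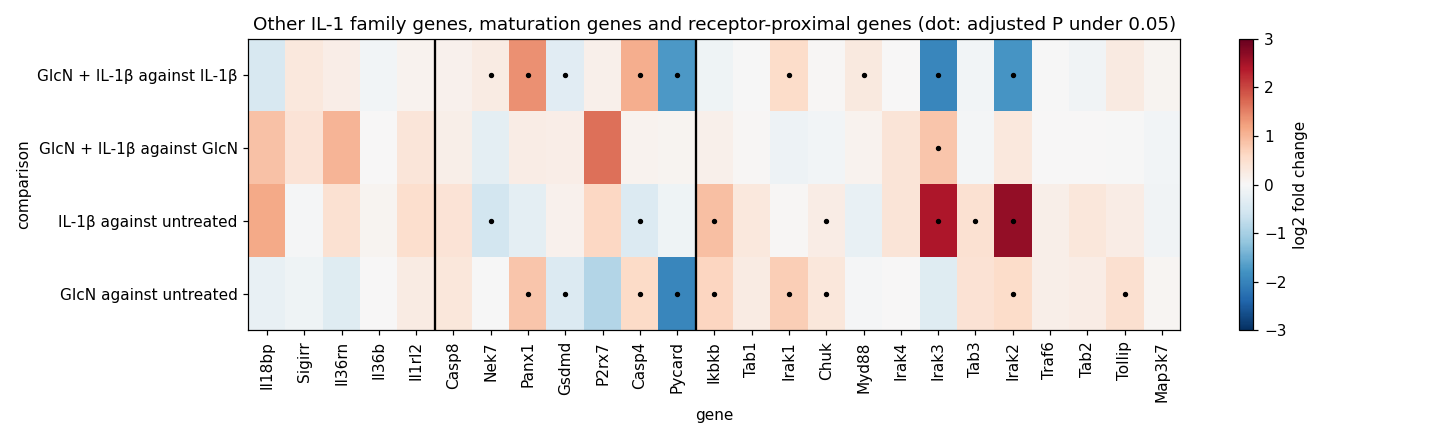
Log2 fold change (color) of the 25 tested genes of the 3 surrounding lists (x axis: other family genes, maturation genes, receptor-proximal genes, divided by lines) in 4 comparisons (y axis; GlcN, glucosamine). A dot marks an adjusted P under 0.05. Irak2 and Irak3 are the darkest cells after IL-1β alone, and Pycard is blue in both comparisons that add glucosamine.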

How the data were processed

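RNA of 13 flasks was measured on 1 array each. Image files came from Microarray Suite (version 5), and the authors had Probe Profiler estimate 1 value per probe set from the probe intensities, with a global scaling to 100. The deposited values are linear intensities, partly negative, and the gap between their quartiles was 107 to 108 on every array, so no scaling was added. Columns were matched to samples by title. Replicate letters were checked for pairing by the correlation of deviations from group means. Between glucosamine plus IL-1β and IL-1β all 4 same-letter pairs were above 0.1 (0.38 to 0.80). Different letters among a to c gave 0.33 to 0.56 as well, and both d arrays stood apart, so the check could not show pairing by letter. The reported fit used no pairing, and the block fit among the alternatives applied the letters to all 4 groups. In the other comparisons same-letter pairs ran from -0.17 to 0.18, and letters were not taken as pairing. Of 31099 probe sets 57 controls were left out, 20826 carried 1 gene symbol in the platform annotation, 436 several and 9780 none. Signals were floored at their 25th percentile and log2 values fitted with limma 3.58.1 (R 4.3.3, eBayes with a trend, 4 groups in 1 fit, 9 residual degrees of freedom), with Benjamini-Hochberg adjustment over 29263 probe sets above the floor on at least 1 array. The fit was tested on simulated data with changes planted only in probe sets well above the floor, so genes at the floor were not covered. Alternatives were other floors, filters, scalings, representatives, samples and blocks, and the methods' analysis of variance with a Tukey test. The named genes were the 10 members, by the probe set with the highest mean, the genes of 3 surrounding lists and the 3 genes most alike to each member called. Members and lists were chosen with earlier results of these data known. Precision is limited by how few arrays there are and by the floor. The most identical pair of arrays shared 0.0515% of values, so none was a copy. Promoters came from RefSeq by gene symbol (9 of 10 matched). No column held the authors' own comparisons.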

Additional observations from a re-analysis of the deposited data

Results flagged for a closer look

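In groups of 4 arrays, 5 of 20 gene and group combinations tested had an array standing far from the others. The 20 include Il1rn, which was at the floor throughout and so had no range. On the log2 scale the gap of the farthest array to its nearest neighbor made up the whole range of the group (a ratio of 1) for Il1a and for Il1b in glucosamine plus IL-1β (array d, 10.4 and 5.96), for Il1r2 in IL-1β alone (array d, 6.41), and for Casp1 in glucosamine plus IL-1β (array b, 9.48). The other arrays of those groups were at the floor, which fixes the ratio at 1, so that the rate of about 1 in 20 that chance gives does not apply to these 4 and nothing is read from their number. For Il1r2 in glucosamine plus IL-1β the ratio was 0.913 (array d, 18.3). Arrays b and c of that group were at the floor, so the chance rate does not apply to it either. In 4 of the 5 cases the array was one of the d arrays that spread more widely at low signals. The part of that spread was not tested.

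The IL-1β response differed between cultures with and without glucosamine by the interaction test for 5 genes. The log2 differences were -4.71 for Il1a, -4.35 for Il1b, -1.48 for Il1r1, 3.87 for Il33 and 1.43 for Il1rl1. Those of Il1a, Il1b and Il33 are bounded by the floor. The calls of Il33 and Il1rl1 depended on glucosamine array a. By the dim second Il1rl1 probe set the difference was 0.15 and was not called.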

How the results depend on the processing

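Calls of Il1a, Il1b and Il1r1 kept their direction and passed in every alternative run, with log2 values of 2.44 to 7.03, 1.88 to 6.86 and 1.45 to 1.57 for IL-1β against no treatment. The wide ranges of Il1a and Il1b span the floors tried. No gene without a call gained one. The methods' analysis of variance with a Tukey test called 4 genes for IL-1β against no treatment in place of 7, losing Il1rap, Il1rl1 and Casp1, and it has no interaction value. Under it, and with the probe set of largest variance, Il1rl1 was also lost for glucosamine and for both agents against no treatment. The Il1rl1 interaction was lost as well with the probe set of largest variance (0.15). With the probe set of largest variance, Il1rap and Il1rl1 turned to 0.46 and 0.31, both uncalled. Both of those probe sets are dimmer than the ones reported and highest on array d of IL-1β. Il1rap did not pass in 10 of 20 alternatives besides that reversal, among them leaving out untreated array a, b or c, or IL-1β array a, c or d. Casp1 did not pass for IL-1β against no treatment in 10 of 19 alternatives and could not be tested at a floor of 32. Leaving out glucosamine array a kept only array b in that group, so no call is read from that fit. The interactions there were 3.39 for Il33 and 1.34 for Il1rl1. The Il33 interaction was lost without untreated array a or c (adjusted P = 0.0525 and 0.052, limma). Leaving out both d arrays changed no count. A fit with the letter as a replicate block called 7, 3, 4, 0, 3 and 5 genes in the 6 comparisons, and it changed no call of a member. Low signals limit what can be said of Il1rn, Il1r2 and Casp1.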
